A study of Rhipicephalus microplus with 12 samples.

Results

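The subject is a set of 107 array probes, of 13459 in all, whose transcripts stood at similar levels in midgut and ovary and at a lower level in salivary gland of the cattle tick *Rhipicephalus microplus*. A probe was a member when its mean log2 ratio over the 4 midgut arrays and its mean over the 4 ovary arrays each lay at least 1 above its mean over the 4 salivary gland arrays, with midgut and ovary less than 1 apart. A difference of 1 on the log2 scale is 2-fold. The values that chose the members are thus the differences between the 3 tissues, and these differences are given below as a description. Of the members, 90 could be paired with a probe identifier and 17 could not.

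The tissues came from adult females of the Mozambique strain that had fed on Holstein-Friesian cattle and were dissected on day 20 of infestation, with no treatment in any group. Midgut, ovary and salivary gland each had 2 biological replicates, and each replicate was hybridised on a first array and a repeat array, so that 12 arrays gave n = 2 per tissue after averaging. Every array carried the tissue in Cy5 and, in Cy3, a common pool of whole ticks of days 4, 5, 7, 13 and 15 with tissues of day 20. A value is the log2 ratio of the tissue to that pool, a direction that is likely from the dyes in the labels. Were the ratios pool over tissue, the members would be high in salivary gland instead. How many ticks a replicate pooled, and on how many cattle they had fed, is not in the labels, and p-values cover no more than the spread among these samples. Midgut and salivary gland arrays shared 1 slide and ovary arrays lay on another. Ovary and slide therefore cannot be told apart, while midgut minus salivary gland is a comparison within a slide.

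The midgut of a feeding tick takes up and digests the blood meal inside its epithelial cells. The ovary grows oocytes that are filled with yolk during and after engorgement. The salivary gland secretes proteins that hold the mouthparts in place and act on host clotting and immunity, and it returns excess water to the host. In bulk RNA, fewer cells of a type and less RNA per cell cannot be told apart. Apart from a gene tag in a few identifiers, none of them paired with a member, the files pair no gene description with a probe, and 0 of the 13459 identifiers matched the RefSeq table of this tick. The tissue labels could therefore not be checked against marker genes, and no function is given to any member.

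The medians of the members separated salivary gland from the other tissues on the arrays, while single members scattered more widely. The median was 0.909, 0.879, 0.855 and 0.621 on the midgut arrays (both arrays of replicate 1, then both of replicate 2) and 0.683, 0.953, 0.923 and 0.642 on the ovary arrays. On the salivary gland arrays it was -0.623, -0.666, -0.555 and -0.538. The lowest midgut or ovary median, 0.621, was thus above the highest salivary gland median, -0.538. Over the whole table, medians ran from -0.05 to 0.31 on midgut arrays, from -0.03 to 0.39 on ovary arrays and from 0.08 to 0.14 on salivary gland arrays. In earlier work on these data 3 arrays stood apart, namely 1 of midgut (replicate 2, repeat) and 2 of ovary (replicate 1, first, and replicate 2, repeat). They had the lowest medians of their tissues, over all probes and over the members alike.

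**Figure D1:**
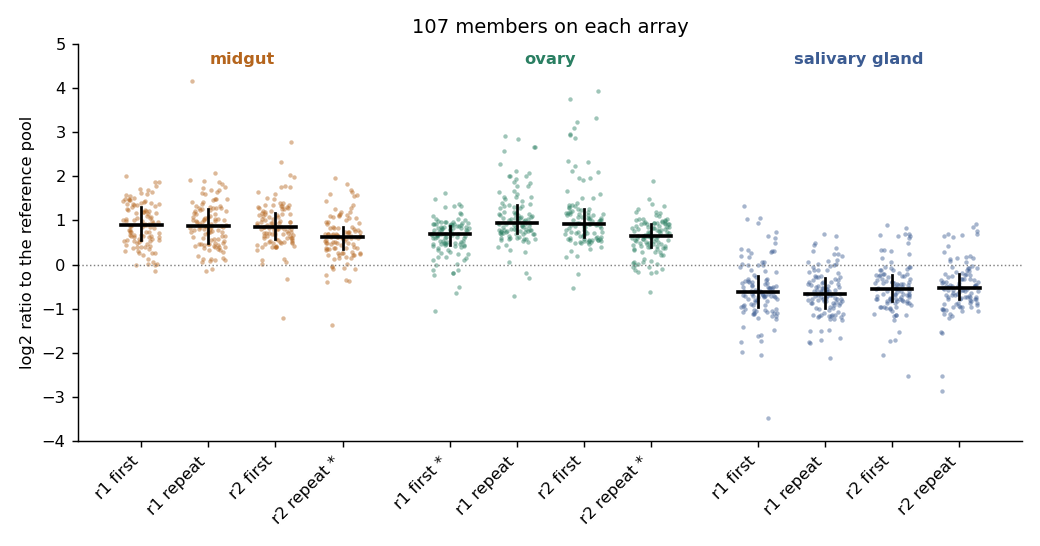
Log2 ratio to the reference pool (vertical axis) of the 107 members on each of the 12 arrays, grouped by tissue, with r1 and r2 for the replicates. Each point is a member, the horizontal bar is the median and the vertical bar runs from the lower to the upper quartile, and asterisks mark the 3 arrays that stood apart; the medians of all 8 midgut and ovary arrays lie above 0 and those of all 4 salivary gland arrays below 0.

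The differences were modest. Midgut minus salivary gland had a median of 1.25 over the members, which is 2.37-fold, and ran to 2.77 at most. For ovary minus salivary gland the median was 1.32, which is 2.5-fold, and the differences ran to 2.21 at most. Over all 13459 probes both medians were 0.13, so that relative to the whole table the members' medians were 1.12 and 1.19. The smaller of a member's 2 differences was under 2.5-fold for 77 members, between 2.5-fold and 3-fold for 14 and at least 3-fold for 16. At 3.85-fold, the highest of these smaller differences was also the highest in the whole table. Only 11 members were 4-fold or more above salivary gland in at least 1 of the other tissues.

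**Figure D2:**
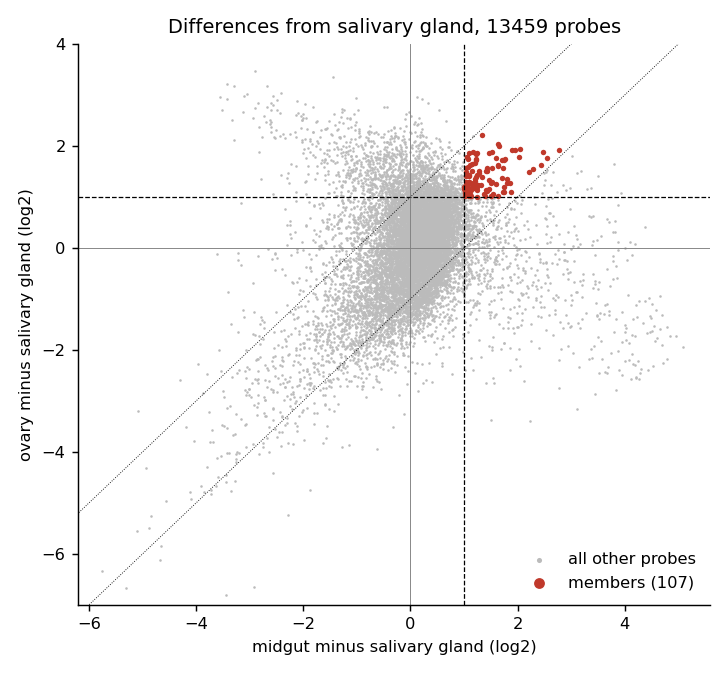
Ovary minus salivary gland (vertical axis) against midgut minus salivary gland (horizontal axis), both in log2 units, for all 13459 probes, with the members in red. Dashed lines mark the margin of 1 and dotted lines mark midgut and ovary 1 apart; the members fill the small corner above both margins, up to 2.77 on the horizontal and 2.21 on the vertical axis.

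The same rule turned to ovary as the low tissue found 702 probes, and turned to midgut it found 194. Their smaller differences had medians of 1.24 and 1.33 and reached 3.32 and 3.49, with 36 and 31 probes above the highest of the members, 1.95. In those sets the low tissue had a median log2 ratio of -1.41 in either case, against -0.58 for salivary gland in the members. The mirror image of the rule, salivary gland at least 1 above midgut and ovary with the other margin kept, found 489 probes, with a median smaller difference of 1.54 and a highest of 5.76. The mirror image found 898 probes for ovary and 387 for midgut as the high tissue, so that with the ratios turned round the counts for low salivary gland, low ovary and low midgut would be 489, 898 and 387. The order of the sets by size changed with the scale. Quantile normalization gave 199 probes low in salivary gland, 380 low in ovary and 169 low in midgut, and scale normalization gave 170, 469 and 139. With centred arrays they numbered 70, 721 and 240, and without the 3 arrays that stood apart 372, 560 and 192. With those arrays left out and the rest centred, they numbered 124, 848 and 265. These counts are descriptions without a test, and those of the other sets under alternatives were chosen after seeing the data.

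The margins were also counted one by one. Midgut was at least 1 above salivary gland at 873 of the 13459 probes and ovary at 1737, and 129 probes met both margins. Whether this overlap differs from that of unrelated margins was not tested. Of these 129, 21 were left out of the set because midgut was at least 1 above ovary, and 1 because ovary was at least 1 above midgut. The count of members depended on the scale and on which arrays and replicates were used. It was 70 with each array centred on its median and 372 without the 3 arrays that stood apart, of which 68 and 96 were among the 107. With those 3 arrays left out and the rest centred, an alternative chosen after seeing the data, it was 124, of which 56 were among the 107. Without midgut replicate 2 it was 180, and without salivary gland replicate 2 it was 168.

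In a limma fit over all probes, with repeat arrays averaged and an adjusted p of 0.05 as the threshold, 90 members were lower in salivary gland than in midgut, where 9.33% of all probes were. Lower in salivary gland than in ovary were 96 members, against 21.6% of all probes. Both held for 89 members, against 2.44% of all probes. The rule used these contrasts, so nothing is read from these counts. Of the remaining members, 7 passed against ovary only, 1 against midgut only and 10 in neither contrast. The fit also called 239 probes lower in salivary gland in both contrasts that are not members, 220 of them with a smaller difference under 1. Without salivary gland replicate 1 the 89 became 64, and with repeat arrays only it was 49.

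Every midgut and ovary array lay above every salivary gland array for 87 members, against 6.30% of all probes. For the other 20 members at least 1 salivary gland array lay above at least 1 midgut or ovary array, whichever of them was out of line. After averaging, both midgut and both ovary replicates lay above both salivary gland replicates for 100 members, against 17.9% of all probes. These values also chose the members.

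The member with the highest smaller difference was Contig2220. Its log2 ratios were 0.99, 1.03, 1.04 and 1.18 on the midgut arrays, 0.82, 0.84, 1.20 and 1.01 on the ovary arrays and -1.23, -1.23, -0.67 and -0.78 on the salivary gland arrays. All midgut and ovary arrays were close to 2-fold above the pool, and the salivary gland replicates differed by more than the replicates of the other tissues. Midgut minus salivary gland was 2.04 (SE 0.23, limma adjusted p = 0.00155) and ovary minus salivary gland was 1.95 (SE 0.23, limma adjusted p = 0.00148).

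Contig775 had the deepest salivary gland level of all members. Its log2 ratios were 1.30, 1.04, 0.97 and 1.05 on the midgut arrays, 0.32, 0.39, 0.18 and 0.12 on the ovary arrays and -1.73, -1.71, -1.70 and -1.56 on the salivary gland arrays. The tissues did not overlap, and ovary lay between the others. At 2.77 (SE 0.19, limma adjusted p = 0.000253), or 6.80-fold, midgut minus salivary gland was the highest of the set, and ovary minus salivary gland was 1.93 (SE 0.19). It also had the highest midgut minus ovary of the named members, 0.84 (limma adjusted p = 0.0112), close to the limit of the rule.

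Among members named by sequence accessions instead of contigs, CV440460 and CV451468 had the highest smaller differences. CV440460 averaged 1.74 and 1.55 in the midgut replicates, 1.13 and 1.00 in the ovary replicates and -0.70 and -0.94 in the salivary gland replicates. It was thus 5.52-fold above salivary gland in midgut and 3.70-fold in ovary. CV451468 averaged 0.59 and 1.17 in midgut, 0.62 and 0.66 in ovary, and -1.14 in both salivary gland replicates. For this probe it was the midgut replicates that spread, while the ovary and the salivary gland replicates nearly coincided.

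**Figure D3:**
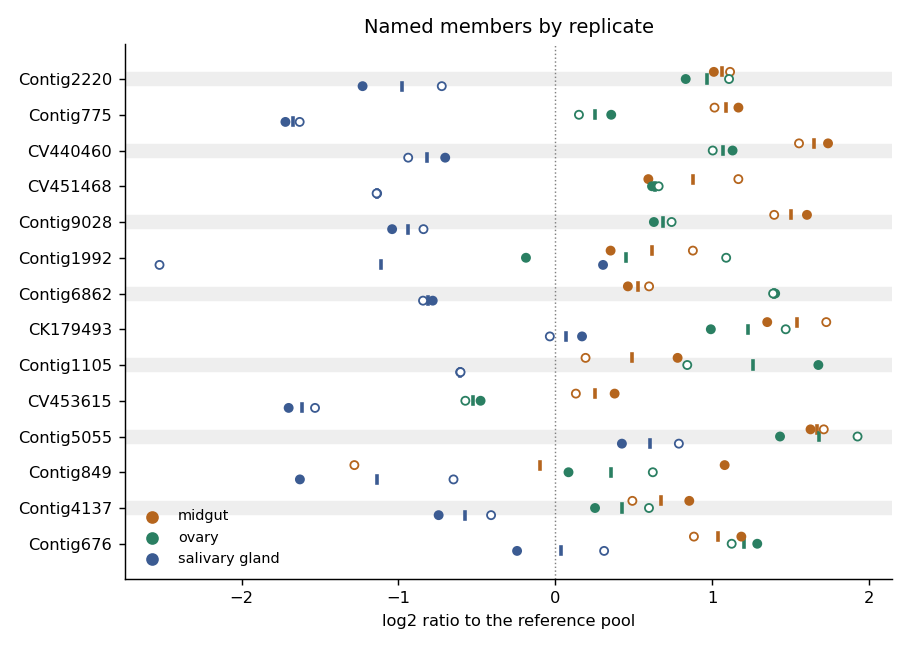
Log2 ratio to the reference pool (horizontal axis) of the 14 named members, ordered from top to bottom by the smaller of the 2 differences over salivary gland. Filled circles are replicate 1, open circles replicate 2 and short bars the mean of the tissue; Contig2220 and Contig775 keep salivary gland well left of the other tissues, whereas the salivary gland replicates of Contig1992 and the midgut replicates of Contig849 lie far apart.

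Midgut and ovary were close to each other in most members, within the limit the rule sets. They were within 0.25 of each other in 59 members and within 0.5 in 81. Midgut was the higher of the 2 in 46 members and ovary in 61, with a median midgut minus ovary of -0.05. That median was between -0.13 and 0.03 under the alternatives tried, so no side is given. In the limma fit, 7 members were higher in midgut than in ovary, where 22.3% of all probes were, and 5 were higher in ovary, where 18.3% were. The rule limits this difference in advance, so nothing is read from these counts either.

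Besides Contig775, Contig9028 leaned most to midgut. Its replicates averaged 1.60 and 1.39 in midgut, 0.63 and 0.74 in ovary and -1.04 and -0.84 in salivary gland, in 3 separate steps. Midgut minus ovary was 0.81 (SE 0.19, limma adjusted p = 0.0137).

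Contig6862 and Contig1105 leaned most to ovary. Contig6862 averaged 0.46 and 0.60 in midgut, 1.40 and 1.39 in ovary and -0.78 and -0.84 in salivary gland. It showed the reverse order of midgut and ovary with narrow replicates, a midgut minus ovary of -0.86 (SE 0.18, limma adjusted p = 0.00784) and, at 2.21, the highest ovary minus salivary gland difference of the set. Contig1105 averaged 0.78 and 0.19 in midgut, 1.68 and 0.84 in ovary and -0.61 in both salivary gland replicates. Its ovary replicate 2 was little above its midgut replicate 1, and midgut minus ovary, -0.77 (SE 0.32, limma adjusted p = 0.0998), did not pass.

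The level relative to the pool is not part of the rule, but the same tissue means enter it. Choosing by differences thus favours high midgut and ovary levels and low salivary gland levels, and the shares below are a description. Midgut lay above the pool in 105 members and ovary in 106, against 60.9% and 60.5% of all probes. Salivary gland lay above the pool in 12 members, against 57.8% of all probes. The combination of midgut and ovary above the pool with salivary gland below it held for 92 members and for 8.05% of all probes. Another 12 members were above the pool in all tissues, and the remaining 3 had midgut or ovary below it. A salivary gland level under -1, more than 2-fold below the pool, was measured in 12 members only. Over the members the midgut and ovary means had medians of 0.84 and 0.88, and the salivary gland means had a median of -0.58. As the dyes were never exchanged, a bias shared by all arrays would shift these levels but not the differences between tissues.

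The named members with the highest midgut and ovary levels were Contig5055 and CK179493. Contig5055 averaged 1.63 and 1.71 in midgut, 1.43 and 1.93 in ovary and 0.42 and 0.79 in salivary gland. It was above the pool in every replicate of every tissue and had the highest salivary gland mean of all members, 0.61. Midgut minus salivary gland was 1.06 (SE 0.24, limma adjusted p = 0.0225) but 0.59 with quantile normalization and 0.56 with scale normalization, where it no longer passed (limma adjusted p of 0.212 and 0.22). CK179493 averaged 1.35 and 1.73 in midgut, 0.99 and 1.47 in ovary and 0.17 and -0.04 in salivary gland, so that its salivary gland level was near that of the pool.

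At the other end stood CV453615 and Contig849. CV453615 averaged 0.38 and 0.13 in midgut, -0.48 and -0.57 in ovary and -1.70 and -1.53 in salivary gland. It was the only member with ovary below the pool, and its midgut minus salivary gland of 1.87 passed (SE 0.19, limma adjusted p = 0.00102). Contig849 averaged 1.08 and -1.28 in midgut, 0.08 and 0.62 in ovary and -1.63 and -0.65 in salivary gland. Its midgut replicate 2 lay below its salivary gland replicate 2, and neither difference passed (limma adjusted p = 0.346 against midgut and 0.134 against ovary). Midgut minus salivary gland was 2.22 without midgut replicate 2 and -0.14 without midgut replicate 1.

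The replicates of the members spread about as in the whole table. For the members the median gap between replicates was 0.217 (midgut), 0.189 (ovary) and 0.270 (salivary gland), and for all probes it was 0.231, 0.205 and 0.25. Gaps over 1 between the salivary gland replicates occurred in 8 members, or 7.48%, and in 3.54% of all probes. Across the members, the order of levels was only loosely shared between replicates, with Pearson's r over 107 probes at 0.43 for midgut and 0.46 for ovary, and at 0.39 for salivary gland. Across all probes r was 0.92, 0.95 and 0.83. The rule holds the members to a narrow range of differences, and probes of an array share that array.

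The widest gap was that of Contig1992. Its log2 ratios were 0.37, 0.33, 0.90 and 0.85 on the midgut arrays, -0.19, -0.19, 1.15 and 1.03 on the ovary arrays and 0.29, 0.32, -2.53 and -2.51 on the salivary gland arrays. Repeat arrays gave nearly the same value, so the gap lay between biological replicates. In replicate 1 salivary gland was level with midgut and above ovary, and only replicate 2 made this probe a member. Neither difference passed (limma adjusted p = 0.202 against midgut and 0.179 against ovary).

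When the rule was applied within each replicate number, 47 of the 107 members met it in both, 37 in replicate 1 only, 18 in replicate 2 only and 5 in neither. This split was chosen after seeing the data, and the numbers name samples and do not pair tissues. The rule on replicate 1 arrays alone found 245 probes. In the replicate 2 arrays, which had no part in that choice, 47 of the 245 met the whole rule, and in 201 midgut and ovary both lay above salivary gland, against 31.0% of all probes. The medians of those 245 were 1.31 for midgut minus salivary gland and 1.39 for ovary minus salivary gland in replicate 1, and 0.58 and 0.95 in replicate 2, where the medians of all probes were 0.03 and 0.11. The rule on replicate 2 arrays alone found 120 probes. In the replicate 1 arrays, 100 of them had midgut and ovary above salivary gland, against 40.1% of all probes. Their medians there were 1.08 and 1.07, where the medians of all probes were 0.18 and 0.10. The differences were smaller in the arrays that had not chosen the probes, and the direction was kept in most. Ovary and salivary gland lay on different slides in both parts, so slide is not set apart here. With 1 sample per tissue in each part, these counts and medians are a description and no test.

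**Figure D4:**
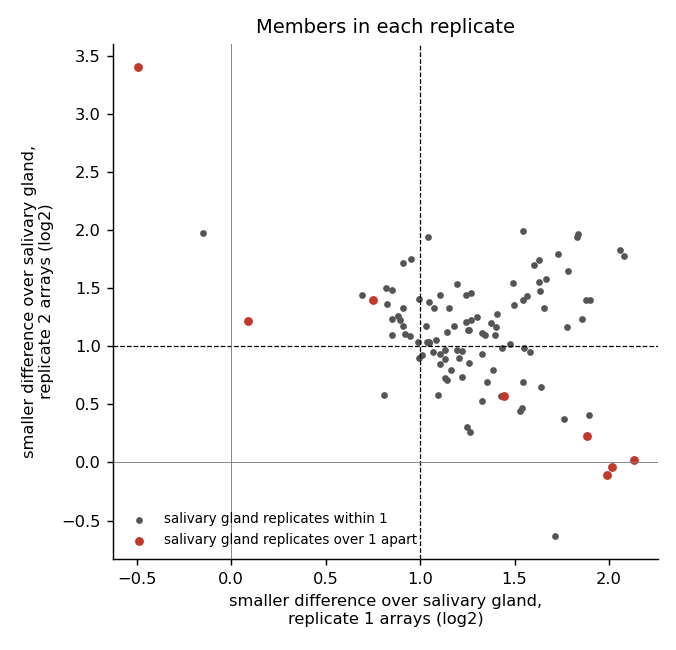
The smaller of the midgut and ovary differences over salivary gland (log2) for each of the 107 members, in replicate 1 arrays (horizontal axis) and replicate 2 arrays (vertical axis), with dashed lines at the margin of 1. Red points are the 8 members whose salivary gland replicates lie over 1 apart; each has a difference over 1 in one replicate and under 1 in the other.

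The 17 members without an identifier are lines to which the authors' deposited tables give no comparison values. They made up 15.9% of the members, against 20.5% of all probes, 3.13% of the set low in ovary and 4.64% of the set low in midgut. Midgut and ovary had median log2 ratios of 1.28 and 1.33 over these 17, and salivary gland had 0.10. Over the 90 members with an identifier the medians were 0.74, 0.78 and -0.67 in the same order of tissues. These levels rested on part of the arrays. The median over the 17 was 1.52, 1.49 and 1.34 on 3 of the midgut arrays and 0.147 on the one that stood apart. It was 2.02 and 2.35 on 2 of the ovary arrays, and 0.164 and 0.0592 on the 2 that stood apart. On the salivary gland arrays it was between 0.0587 and 0.338, so that on the 3 arrays that stood apart the 17 were, by their median, at the level of salivary gland. Over the 90 members with an identifier the median was between 0.643 and 0.871 on every midgut and ovary array, and between -0.716 and -0.587 on the salivary gland arrays. Of the 8 members with salivary gland replicates over 1 apart, 7 had no identifier. In each of these 7, the lower replicate held 1 array far below its own repeat array. Examples are -3.47 against 0.50 and -2.12 against 1.05. Unlike for Contig1992, these gaps thus lay between repeat arrays of 1 replicate as well. The limma fit called 6 of the 17 and 83 of the 90 lower in salivary gland in both contrasts.

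Of the 90 members with an identifier, 63 were contigs and 27 were sequence accessions or cluster names, a share of accessions close to that among all paired probes (28.8%). The members lay across the whole numbering of the table, with 29, 23, 22 and 33 in its 4 successive parts of equal size. The authors' fold changes rest on all 12 spots for 67 of the 90 members, or 74.4%, against 66.7% of all paired probes. In the authors' deposited tables, 86 of the 90 were lower in salivary gland than in midgut at an adjusted p of 0.05, where 20.9% of the 10695 probes with values were. All 90 were lower than in ovary there, where 30.1% were, and the 86 were lower than in both, where 7.17% were. Those tables come from the same arrays and add no separate evidence. Their adjusted p-values differ from those of the limma fit above even at equal fold changes. For midgut against salivary gland of Contig2220, the authors' adjusted p is 2.37e-09 and the limma adjusted p of the fit above is 0.00155. The counts of the 2 fits are therefore not alike, and how repeat arrays entered the authors' fit was not tested. The authors' deposited log2 fold changes met the rule at 85 probes, 80 of them members. Contig5055 and Contig676 missed it there, with 0.98 and 0.86 for midgut against salivary gland in the authors' deposited table.

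On the margin itself, Contig676 was just inside, with midgut minus salivary gland at 1.001, and so was Contig4137, with ovary minus salivary gland at 1.002. Just outside were CV437073, with midgut minus salivary gland at 0.996, and Contig4093, at 0.985. Contig676 averaged 1.19 and 0.88 in midgut, 1.29 and 1.12 in ovary and -0.24 and 0.31 in salivary gland. CV437073 averaged 0.36 in midgut and 0.69 in ovary, against -0.64 in salivary gland. Both probes thus keep salivary gland below the other tissues, by nearly the same smaller difference.

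On the array 76 contigs carry a pair of probes with the suffixes A and B, and the files do not say how they differ. Of the members, 2 belong to such a pair, and in neither case was the partner a member. Contig199B averaged 0.82 and 0.51 in midgut, 1.13 and 1.00 in ovary and -0.95 and -0.65 in salivary gland. Its partner Contig199A averaged 0.72 and 0.69 in midgut, -0.73 and -0.54 in ovary and 0.52 and 0.29 in salivary gland. The order of ovary and salivary gland differed between the probes of this contig, with ovary minus salivary gland at 1.87 for Contig199B (SE 0.21, limma adjusted p = 0.00131) and -1.05 for Contig199A (SE 0.19, limma adjusted p = 0.00547).

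Contig2009A averaged 0.69 and 0.81 in midgut, 0.77 and 0.50 in ovary and -0.42 and -0.35 in salivary gland. Contig2009B averaged 0.70 and 0.79 in midgut, -0.27 and -0.40 in ovary and 0.22 and -0.19 in salivary gland. Ovary minus salivary gland was 1.02 for Contig2009A and -0.35 for Contig2009B, the second not passing (limma adjusted p = 0.204). Such gaps were common among paired probes. Over the 58 pairs with values for both, the median gap between partners was 0.83 for midgut minus salivary gland and 1.00 for ovary minus salivary gland, and 22 and 29 pairs were over 1 apart.

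**Figure D5:**
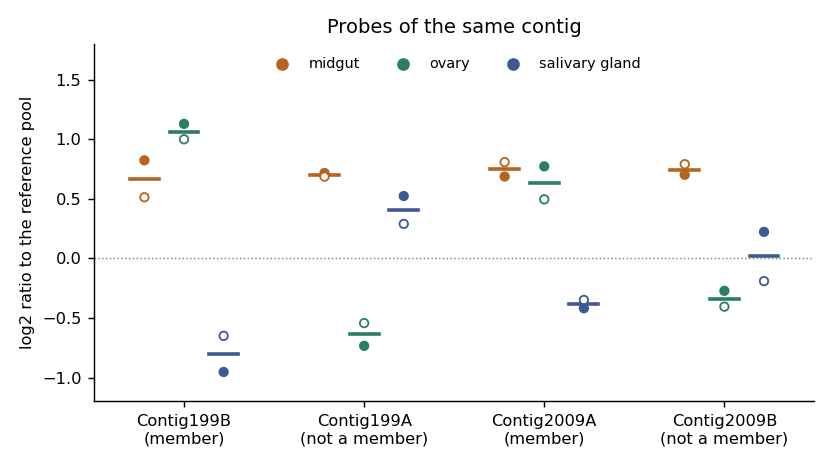
Log2 ratio to the reference pool (vertical axis) of the members Contig199B and Contig2009A beside the other probe of the same contig. Filled circles are replicate 1, open circles replicate 2 and bars the mean of the tissue; ovary is above salivary gland for the members and below it for Contig199A and Contig2009B.

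The paired probes with a gene tag in their identifier were no members. For the TATA-binding protein, which helps to start transcription, the tagged probe had a midgut minus salivary gland of 0.17 and an ovary minus salivary gland of 0.88. The second of these passed, with ovary the higher (limma adjusted p = 0.0091), and the first did not (limma adjusted p = 0.558). The probe tagged for ribosomal protein L4 had -0.09 and -0.45, and neither passed (limma adjusted p = 0.766 and 0.0969).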

How the data were processed

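The deposited value table holds log2 ratios for 13459 probes and 12 arrays with 0 missing values. These values were made with limma, per the submitters' processing notes. Its version and how background and arrays were corrected are not given in the sources used. Arrays were not centred on a common median, and spot intensities were not used here, so dim spots are not known. For 10695 of 13459 probe identifiers, the authors' deposited tables of comparisons hold a log2 fold change, a fold (a ratio, in 2 tables with a sign) and an adjusted p-value, per the file headers.

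Lines of the value table carry numbers only. Identifiers were paired with lines through the authors' log2 fold changes, which had to equal differences of tissue means over all or part of the arrays within 2e-08. All 10695 found a line, with 0 ambiguous, and 3 of as many decoys found one.

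Repeat arrays were averaged, and tissue means were fitted with limma 3.58.1 in R 4.3.3 (3 residual degrees of freedom), with Benjamini-Hochberg adjustment over all probes. The fit was also run on simulated replicate averages with independent noise. That simulation had no array, repeat-array or slide effects, so it does not cover them, and no result above rests on it. The members, the probes named and all tests were chosen with earlier results of these data known. The named probes are the 2 members at each end of midgut minus ovary and of the midgut and ovary level, the 2 with the highest smaller difference (also among accessions), the 2 with the widest salivary gland gap and 2 on each side of the margin. Paired contig probes were added after their values were seen. An exact test of 2 against 2 samples cannot reach the threshold and was not run. Alternatives covered normalization, arrays and replicates left out, blocks, thresholds and the margin. Tables and figures were made with pandas 2.3.3, numpy 2.4.6 and matplotlib 3.10.9 under Python 3.11.15.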

Additional observations from a re-analysis of the deposited data

Results flagged for a closer look

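Dixon's test was run on 51 sets of 4 arrays (16 named probes and the median of the members, in each tissue). In 1 set an array lay far from the others. The repeat array of ovary replicate 1 gave 0.798 for CV437073, a probe just outside the margin, against 0.633 to 0.658 on the other ovary arrays. It is no member, and no count of members uses it. Chance gives about 1 in 20 for independent arrays, but repeat arrays share a replicate, so that rate does not hold here. Members without an identifier were not in these sets. For 1 of them, a salivary gland array gave -3.47, against 0.43 to 0.61 on the others.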

How the results depend on the processing

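Over the alternatives tried, the medians of the 107 members were 1.14 to 1.45 for midgut minus salivary gland, 1.25 to 1.58 for ovary minus salivary gland and -0.13 to 0.03 for midgut minus ovary. The count of probes meeting the rule was less stable: 70 with centred arrays, 199 with quantile and 170 with scale normalization, 372 without the 3 arrays set apart, 273 with a margin of 0.8, 20 with a margin of 1.5, and 245 with replicate 1 arrays only, the last chosen after seeing the data. Of those 199 and 170, 89 and 88 were among the 107. Leaving out 1 replicate gave 101 to 180, the highest without midgut replicate 2, and the cause was not tested. Members lower in salivary gland than in midgut numbered 50 with repeat arrays only and 59 at an adjusted p of 0.01, and in both contrasts 49 and 58; without 1 replicate, where the remaining sample of that tissue borrows its spread from the others, they numbered 66 to 85 against midgut, 83 to 100 against ovary and 64 to 85 in both. A replicate block gave 90, 97 and 88. Across probes, the replicate differences of 2 tissues correlated at -0.029, 0.034 and 0.101, and with 1 difference per tissue the pairing cannot be settled. Of 448 values of the named members under alternatives, 33 lost the threshold, 14 gained it and 1 changed sign, midgut minus salivary gland of Contig849 without midgut replicate 1 (-0.142; 2.22 without midgut replicate 2). The number of arrays limits the precision, with a median SE of 0.22 per difference over the members.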
